A study of Homo sapiens with 6 samples.

Results

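Heat shock proteins and the DNAJ co-chaperones that work with them were followed as mRNA in HCT116, an established human colorectal carcinoma cell line with wild-type p53. The genes were chosen by symbol, as every row of the deposited count table named DNAJA, DNAJB, DNAJC, HSPA or HSPB with a number, plus HSPD1, HSPE1, HSPH1, HSP90AA1, HSP90AB1 and HSP90B1. This gave 72 of the 27942 rows, with 71 different symbols, since HSPA14 is listed under 2 gene identifiers. Of the 72 rows, 62 passed the filter on low counts and were tested among 13727 genes. The study compared 3 libraries of untreated cells (NT) with 3 libraries of cells kept for 24 h in 0.5 µM oxaliplatin (OXA), a platinum drug that crosslinks DNA. Both groups were the same line, grown in RPMI medium with serum to a subconfluent density, and the NT cells received no treatment. All results therefore concern 1 cell line at 1 dose and 1 time. The labels call the libraries replicates and do not say whether they came from separate cultures, so p-values measure the spread between these libraries, which may be technical.

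Molecular chaperones bind proteins that are not yet folded or have lost their fold. HSP70 proteins (the HSPA genes) grip and release such proteins in a cycle driven by ATP. A DNAJ protein, whose J domain stimulates the ATPase of HSP70, starts the cycle, and a nucleotide exchange factor such as an HSP110 protein ends it. HSP90 acts later, on kinases, receptors and other clients, and the small heat shock proteins (HSPB) hold unfolded proteins without using ATP. HSPD1 and HSPE1 form the folding chamber of mitochondria. Heat and other protein-damaging stress raise many of these genes through heat shock factor 1 (HSF1), whereas unfolded protein in the endoplasmic reticulum (ER) raises HSPA5, HSP90B1 and several DNAJ genes through the unfolded protein response.

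The libraries held between 32979521 and 40967880 counts on genes. The p53 targets CDKN1A and MDM2, read as a check of the treatment, had log2 fold changes of 2.93 and 2.22 in OXA over NT, and both passed the test. Of 8 epithelial markers, EPCAM, CDH1, KRT8, KRT18 and KRT19 were expressed, VIL1 was low, and CDH17 and LGALS4 stayed at or under 3 counts in every library. The 12 markers of blood, stromal and endothelial cells summed to 158 to 320 raw counts per NT library and 219 to 300 per OXA library, and to 35 to 51 over all libraries without COL1A1. NT library 1 stood apart from the other NT libraries with GC content, as described below for HSPA1A and HSPB1. Libraries of the same number in NT and OXA deviated together from their group means, although the labels do not say what a number stands for. Where it changes a call, the value from a second fit that adds the replicate number as a block is given too.

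Promoter sequences are shown first for genes on which the results turn, because the heat shock factor element in them was searched across all genes. Sequences are the 250 bases before a RefSeq transcription start in GRCh38.p14, read 5′ to 3′ on the strand of the gene. Capitals mark 2 inverted units of the heat shock element, GAANNTTC or TTCNNGAA. Only windows with such a match are shown, and DNAJB1 has other RefSeq starts whose windows had none. HSPA4L and HSPB8 are the genes that passed the test, HSPA1A and HSPA1B are the near-identical heat-inducible HSP70 genes, and DNAJB1 is their J-protein partner. In the GENCODE annotation none of the first 4 windows touched an exon, and the DNAJB1 window had 10 bases in an exon of a non-canonical transcript. The HSPA4L, HSPB8 and DNAJB1 windows lay inside the annotated span of their own gene, and those of HSPA1A and HSPA1B directly before it.
HSPA4L, chr4:127782072-127782321, plus strand: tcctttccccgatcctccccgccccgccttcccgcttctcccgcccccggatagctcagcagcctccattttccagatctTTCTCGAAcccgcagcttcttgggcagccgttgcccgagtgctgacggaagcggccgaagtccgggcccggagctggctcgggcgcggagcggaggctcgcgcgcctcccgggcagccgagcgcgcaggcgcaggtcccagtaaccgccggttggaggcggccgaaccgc
HSPB8, chr12:119178681-119178930, plus strand: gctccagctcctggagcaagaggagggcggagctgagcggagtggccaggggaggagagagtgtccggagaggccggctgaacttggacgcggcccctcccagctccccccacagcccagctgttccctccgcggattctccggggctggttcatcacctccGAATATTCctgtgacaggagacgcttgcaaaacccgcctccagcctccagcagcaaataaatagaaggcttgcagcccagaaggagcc
HSPA1A, chr6:31815293-31815542, plus strand: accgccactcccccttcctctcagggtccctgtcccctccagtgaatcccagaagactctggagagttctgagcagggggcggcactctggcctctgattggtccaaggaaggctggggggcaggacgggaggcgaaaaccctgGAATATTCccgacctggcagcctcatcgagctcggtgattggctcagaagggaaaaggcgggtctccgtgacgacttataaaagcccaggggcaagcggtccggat
HSPA1B, chr6:31827488-31827737, plus strand: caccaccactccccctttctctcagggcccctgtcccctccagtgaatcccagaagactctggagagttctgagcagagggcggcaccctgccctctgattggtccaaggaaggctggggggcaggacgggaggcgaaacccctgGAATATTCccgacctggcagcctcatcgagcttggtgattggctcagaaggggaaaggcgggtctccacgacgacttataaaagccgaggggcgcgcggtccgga
DNAJB1, chr19:14518398-14518647, minus strand: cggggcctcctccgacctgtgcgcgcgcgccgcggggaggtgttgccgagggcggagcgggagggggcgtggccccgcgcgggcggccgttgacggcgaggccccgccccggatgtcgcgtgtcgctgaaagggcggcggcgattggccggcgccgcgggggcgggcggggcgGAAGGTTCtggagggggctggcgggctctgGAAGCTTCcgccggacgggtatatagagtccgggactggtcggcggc
HSPB8, HSPA1A and HSPA1B held the same 8 bases, GAATATTC, starting 88, 106 and 105 bases before the transcription start. The match in HSPA4L started 170 bases before it, and DNAJB1 had a pair of matches, 77 and 47 bases before. The HSPA1A and HSPA1B windows aligned over 235 identical bases, 14 mismatches and 2 gaps, 93.6% identity, with the element unchanged in both.

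A longer element with 3 inverted units, searched as GAANNTTCNNGAA on both strands, was found in 6 of the 82 promoter windows of these genes (7.32%) and in 155 of all 35116 promoter windows of the same length (0.441%). Of the 71 symbols, 63 had a promoter window, and 14 of these had several. The 3-unit sites of all 6 genes are shown in capitals with 10 bases on each side, as far as the windows reach, because they include HSP90AB1, HSP90AA1, HSPA8 and HSPD1, the 4 most abundant genes of the list on a scale per transcript length. In HSPD1 the capitals join 2 overlapping matches, 1 on each strand.
HSP90AA1, chr14:102087110-102087142, minus strand: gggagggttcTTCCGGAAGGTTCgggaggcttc
HSP90AB1, chr6:44247768-44247800, plus strand: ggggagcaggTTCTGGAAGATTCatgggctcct
HSP90AB1, chr6:44247821-44247853, plus strand: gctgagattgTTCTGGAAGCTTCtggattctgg
HSPA8, chr11:123062344-123062376, minus strand: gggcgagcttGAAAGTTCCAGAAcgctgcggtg
HSPA8, chr11:123062169-123062201, minus strand: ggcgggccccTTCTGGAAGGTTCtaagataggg
HSPD1, chr2:197500058-197500090, minus strand: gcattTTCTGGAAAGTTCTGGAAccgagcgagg
DNAJB6, chr7:157336863-157336895, plus strand: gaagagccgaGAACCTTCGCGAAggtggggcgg
HSPA6, chr1:161524456-161524488, plus strand: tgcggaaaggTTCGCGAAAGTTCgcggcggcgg
The shorter 2-unit element, which the 3-unit element contains, was present in 20 of the 82 windows (24.4%) and in 11.6% of all promoter windows. The windows of HSPA1A and HSPA1L, on opposite strands, hold the same site, so the 20 are not all separate elements. The ER stress response element, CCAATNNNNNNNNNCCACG, was found in HSPA5 and HSP90B1 only among these genes (2.44% of the windows, 0.074% of all promoter windows). Both of its genes encode ER chaperones, and HSP90B1 carried it on each strand once.
HSPA5, chr9:125241381-125241419, minus strand: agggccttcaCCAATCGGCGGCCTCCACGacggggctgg
HSP90B1, chr12:103930206-103930244, plus strand: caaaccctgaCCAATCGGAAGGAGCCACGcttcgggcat
HSP90B1, chr12:103930311-103930349, plus strand: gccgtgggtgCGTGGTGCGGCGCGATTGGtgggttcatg
A match of letters is a description of the window and not evidence of binding in these cells.

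The levels of the genes differed by orders of magnitude. On the TPM scale, where raw counts are divided by the length of the canonical transcript and every library sums to the same total, HSP90AB1 was the most abundant in NT at 5773 ± 706 TPM (mean ± SD, n = 3), ahead of HSP90AA1 at 3923 ± 697 and HSPA8, the constitutive cytosolic HSP70, at 3912 ± 614. These latter levels did not differ beyond their spread. HSPD1 followed at 2095 ± 372 TPM, then HSPE1 at 1226 ± 206 and HSP90B1 at 1193 ± 163, again neighbors within their spread. HSPA5, the ER HSP70 also known as BiP, stood at 655 ± 76 TPM. The first 4 of these genes made up 70% of the summed TPM of the 72 rows in NT, and the first 10 made up 88.4%. By family, the 3 HSP90 genes held 48.5% of the summed TPM in NT and 49.8% in OXA. The 13 HSPA rows without HSPA4 and HSPA4L held 23.4% and 21.2%. The 3 HSP110 genes (HSPA4, HSPA4L and HSPH1) held 1.88% and 1.98%. The 2 mitochondrial chaperonin genes held 14.8% and 15.1%, and the 8 HSPB genes 1.78% and 2.29%. The 43 J-protein rows were all minor on this scale, with 2.57% for DNAJA, 2.55% for DNAJB and 4.48% for DNAJC in NT. TPM depends on the transcript chosen for each gene, which is long for HSPA4L (10608 bases) and DNAJC10 (20144 bases).

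**Figure D1:**
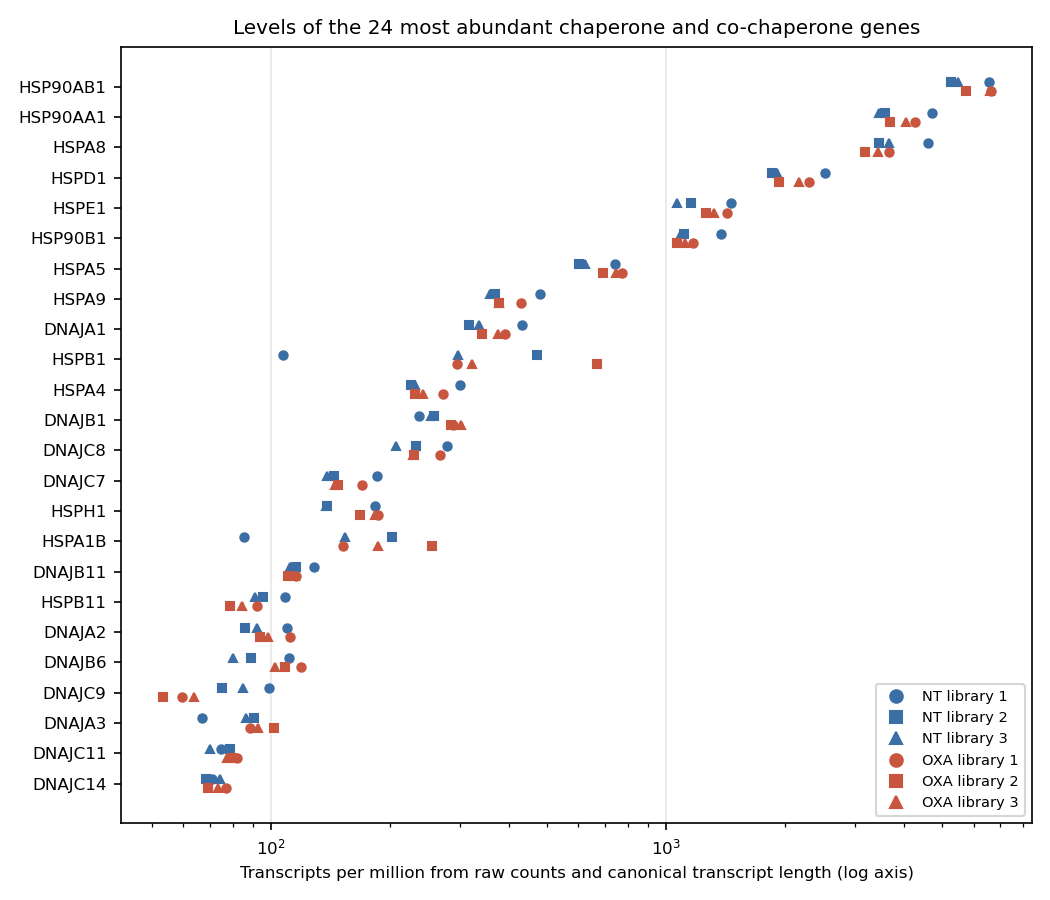
TPM on a log axis for the 24 most abundant chaperone and co-chaperone genes, with 1 point per library (blue NT, red OXA, shape for the library number). HSP90AB1, HSP90AA1, HSPA8 and HSPD1 lie at the top, and HSPB1 and HSPA1B show the widest spread between libraries, with NT library 1 lowest in both.

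Together the 72 rows took 2.91%, 2.40% and 2.39% of the counts of NT libraries 1, 2 and 3, and 2.81%, 2.56% and 2.71% of those of OXA libraries 1, 2 and 3. The groups overlapped, and NT library 1 had the highest share of all 6 libraries.

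Few of these genes passed the test without the block, as was true of all genes. Only HSPA4L and HSPB8 rose and none fell at an adjusted p-value under 0.05 in the edgeR quasi-likelihood test, which is 3.23% of the 62 tested rows against 5.07% of all genes tested (2.78% higher, 2.29% lower). At an unadjusted p-value under 0.05 there were 9 higher and 1 lower, where 21.7% of all genes passed (1463 higher and 1517 lower of 13727). DESeq2 called 5 higher (HSPA4L, HSPB8, DNAJB4, DNAJC30 and DNAJB1, against 4.61% of all genes) and 1 lower (DNAJC9, against 4.63% of all genes). By limma-voom 2 were higher and 0 lower, where 375 and 289 of all 13727 genes were. Without NT library 1, edgeR called 8 higher and 0 lower (4.49% and 4.11% of all genes). These are bulk libraries, in which a change per cell and a change in the share of cells that express a gene cannot be told apart. The log2 fold changes of the 62 ranged from -0.49 to 0.83 with a median of 0.096, while the median of all genes was 0.023. For 48 of the 62 the change was smaller than 0.3 on the log2 scale, as it was for 68.6% of all genes. A log2 fold change above 0 was seen in 41 of the 62 (66.1%, against 53.3% of all genes). In 11 rows all OXA libraries lay above all NT libraries (17.7%, against 14.5% of all genes), and in 4 all lay below (6.45%, against 14.4%). Groups without overlap made up 28.9% of all genes.

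With the replicate number as a block, 13 rows passed as higher (21.0%, against 12.1% of all genes) and 1 as lower (1.61%, against 10.9%), and 48 did not pass. The block thus moved the share called to 22.6% of the 62, where 23.0% of all genes passed. The genes that passed with the block are named below with both p-values.

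**Figure D2:**
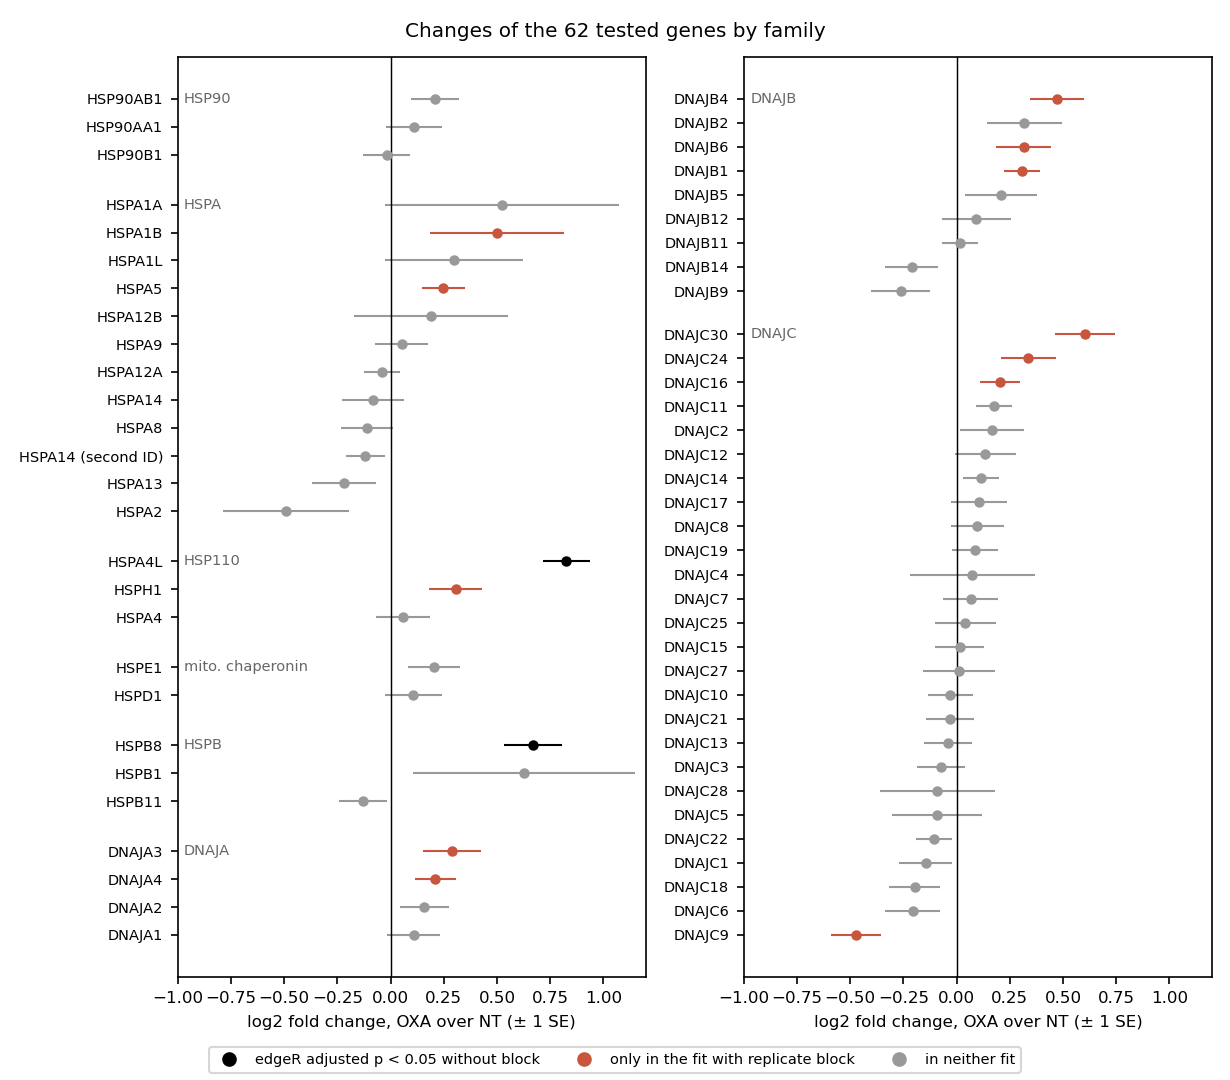
Log2 fold change of OXA over NT for each of the 62 tested rows, grouped by family, with bars of 1 standard error (SE) and color for the call. HSPA4L and HSPB8 (black) passed without the block, 12 further rows (red) passed in the fit with the block and not in the one without it, and DNAJC9 is the 1 of these on the negative side.

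The HSP110 family, exchange factors that reset HSP70 and also hold unfolded proteins, held the gene that rose most. HSPA4L, on chromosome 4 from 127781821 to 127840733 (GRCh38), had 3000.3, 2526.4 and 2475.9 normalized counts (scaled by TMM) in NT libraries 1 to 3 and 5175, 4440.8 and 4563.7 in OXA libraries 1 to 3. All OXA libraries lay far above all NT libraries. The log2 fold change was 0.83 (SE 0.11), with an edgeR adjusted p = 0.00949, and with the block 0.00123. Without NT library 3 or OXA library 1 the adjusted p was 0.0517 and 0.0608, and over the settings without a block, the test against a minimum fold change aside, it ranged from 2.45e-07 to 0.0608. HSPH1, the heat-inducible member of the family also called HSP105, had 14759, 11438 and 11263 normalized counts in NT and 16120, 14486 and 15686 in OXA. NT library 1 lay inside the range of the OXA libraries. HSPH1 had a log2 fold change of 0.31 (SE 0.12, edgeR adjusted p = 0.203), and it passed with the block (adjusted p = 0.0334) and without NT library 1 (adjusted p = 0.0188). HSPA4, the abundant constitutive member, averaged 18779 ± 2859 normalized counts in NT and 19530 ± 1712 in OXA (mean ± SD, n = 3), a log2 fold change of 0.057 (SE 0.13, edgeR adjusted p = 0.843) that turned negative in the fits lacking NT library 2, NT library 3 or OXA library 1 and passed with the block once GC content and length trends were taken out (0.14, adjusted p = 0.00854).

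Among the small heat shock proteins, HSPB8, which works with the co-chaperone BAG3 in clearing misfolded proteins by autophagy, was the second gene to rise. Its normalized counts were 247, 248 and 233 in NT and 426, 352 and 380 in OXA, with no overlap. The log2 fold change was 0.67 (SE 0.14, edgeR adjusted p = 0.0361, with the block 0.0124). The call was lost when any library other than NT library 1 was left out, with adjusted p between 0.0877 and 0.169. HSPB8 is a low-abundance gene here, on chromosome 12 from 119171555 to 119224855. HSPB11, which carries the family name but encodes a part of the intraflagellar transport complex, had a log2 fold change of -0.13 (SE 0.11, edgeR adjusted p = 0.557). Its lowest edgeR adjusted p was 0.00876, as lower, with the block and either GC content and length trends removed or replicate 1 left out.

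**Figure D3:**
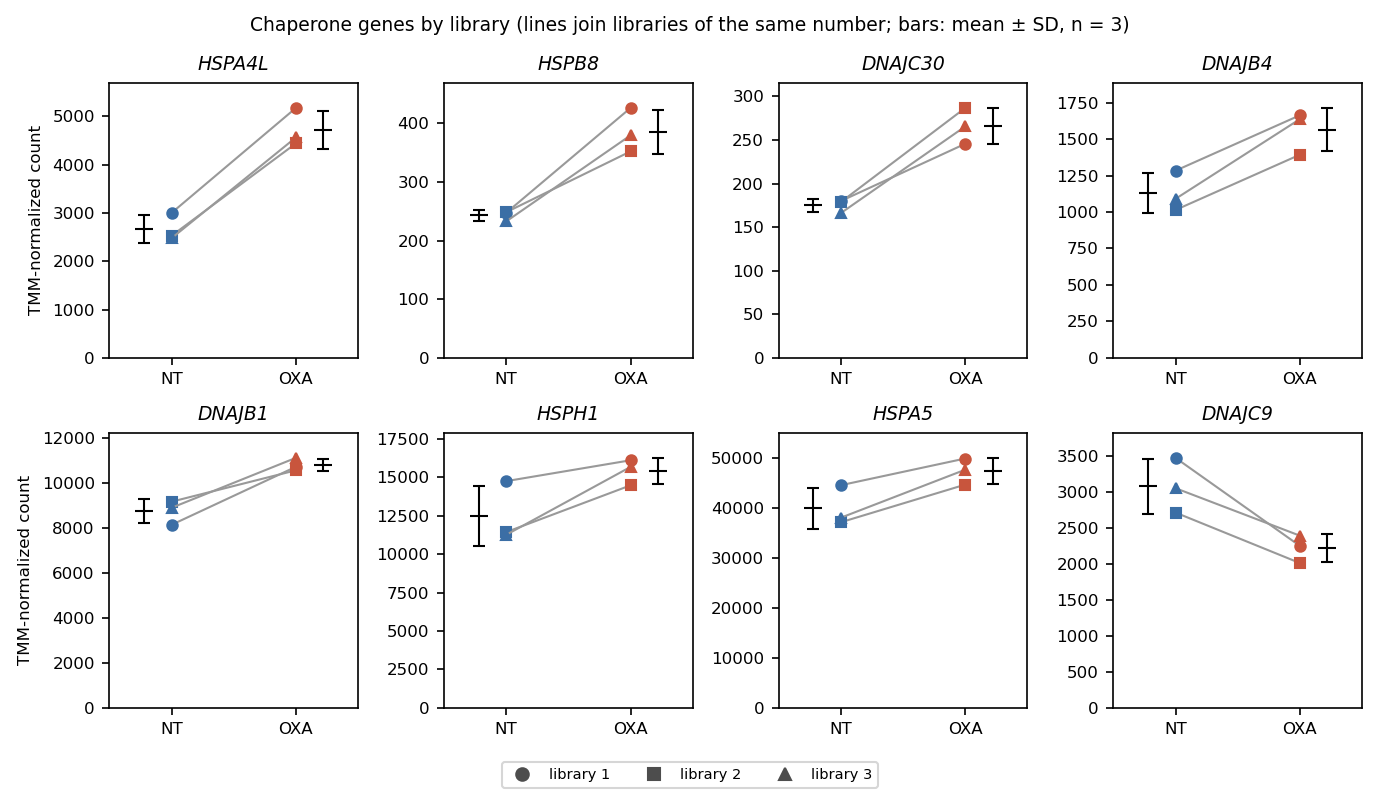
TMM-normalized counts of 8 genes in each library, with lines joining libraries of the same number and bars of mean ± SD (n = 3). HSPA4L and HSPB8 rise from NT to OXA in all 3 same-numbered pairs, DNAJC9 is lower in OXA in all 3, and HSPH1 shows NT library 1 within the OXA range.

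The classic heat-inducible genes HSPA1A, HSPA1B and HSPB1 varied so widely between libraries of 1 group that no difference could be separated from that spread without the block. HSPB1 (HSP27) had 1275, 5765 and 3602 normalized counts in NT and 3790, 8569 and 4084 in OXA. Library 2 was the highest and library 1 the lowest in each group, and the groups overlapped. Its log2 fold change was 0.63 (SE 0.52), with an edgeR adjusted p = 0.544, and with the block 0.0775. HSPA1B had 3303, 8048 and 6044 normalized counts in NT and 6339, 10588 and 7672 in OXA, in the same order of libraries. Its log2 fold change was 0.50 (SE 0.32, edgeR adjusted p = 0.415), which passed with the block (adjusted p = 0.0264). HSPA1A, whose product is nearly the same protein, had 49.1, 264 and 174 normalized counts in NT and 151, 351 and 199 in OXA, a log2 fold change of 0.52 (SE 0.55, edgeR adjusted p = 0.64).

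HSPA1A and HSPA1B lie on chromosome 6 from 31815543 to 31817946 and from 31827738 to 31830254, and reads from such near-identical copies can be assigned to either, so their single counts are uncertain. Of the canonical transcript of HSPA1B, 36.6% also lies in exons of a long non-coding RNA on the same strand. Summed before the fit, they gave raw counts of 3279, 7998 and 6814 for NT, and of 5999, 10033 and 8834 for OXA. The log2 fold change of the sum was 0.50 (SE 0.32, edgeR adjusted p = 0.422, with the block 0.0275). HSPA6, the strictly stress-induced HSP70 gene with a 3-unit element, had raw counts of 2, 5 and 1 for NT, and of 6, 2 and 4 for OXA, too few to be tested.

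**Figure D4:**
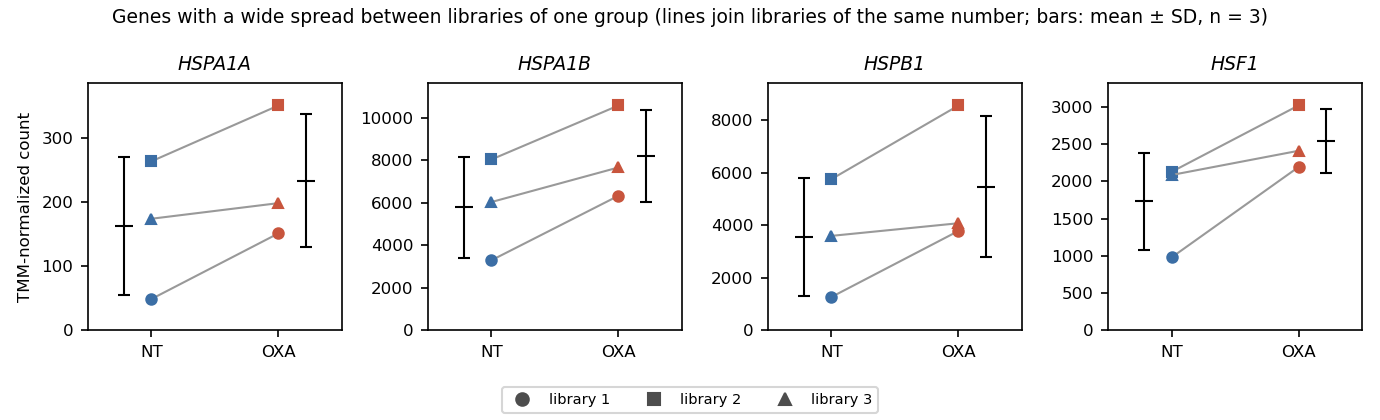
TMM-normalized counts of HSPA1A, HSPA1B, HSPB1 and HSF1 in each library, with lines joining libraries of the same number and bars of mean ± SD (n = 3). NT library 1 is the lowest in every panel, library 2 is the highest of each group, and the groups overlap for HSPA1A, HSPA1B and HSPB1.

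The spread of these genes moved with their GC content. In NT library 1, the log2 difference from the mean of the other NT libraries was -2.12 for HSPA1A (59.8% GC), -1.84 for HSPB1 (65.3% GC) and -1.08 for HSPA1B (58.8% GC). Of the 9 tested rows over 55% GC, 7 lay more than 0.3 below in that library. Over the 62 rows, Spearman's rho between GC content and the deviation of a library from the others of its group was -0.66 in NT library 1, 0.74 in NT library 2 and 0.30 in NT library 3. In OXA libraries 1, 2 and 3 it was -0.37, 0.76 and -0.45. The same held over 13675 genes, with rho of -0.77, 0.71 and 0.47 in NT and -0.57, 0.64 and -0.17 in OXA. These are descriptions over genes of the same libraries. With the block, and with GC-content and length trends taken out library by library, the log2 fold change of HSPB1 was 0.41 (edgeR adjusted p = 0.00561), HSPA1A 0.45 (adjusted p = 0.0459) and HSPA1B 0.38 (adjusted p = 0.000122), so all 3 passed as higher there. In that fit 25 of the 62 rows were higher and 7 lower, and 23.3% of all genes were higher and 22.3% lower.

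**Figure D5:**
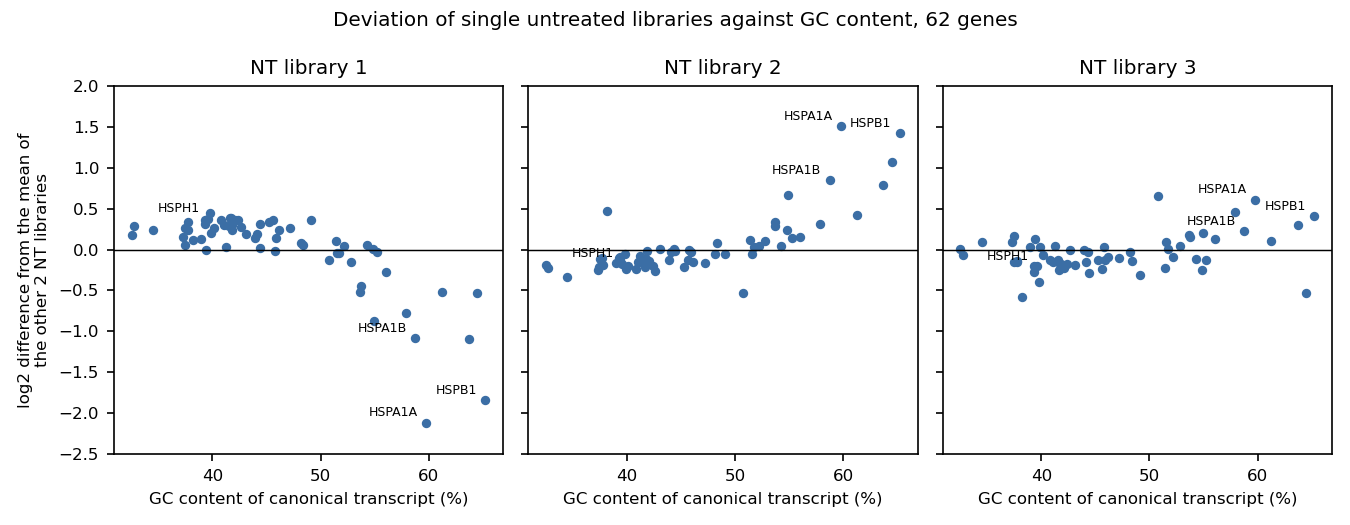
Deviation of each NT library from the mean of the other 2 NT libraries (log2) against the GC content of the canonical transcript, for the 62 tested rows. In NT library 1 the GC-rich genes HSPA1A, HSPB1 and HSPA1B lie lowest (-2.12, -1.84 and -1.08), and in NT library 2 they lie above 0.

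The abundant cytosolic chaperones HSP90AB1, HSP90AA1 and HSPA8 did not pass the test, with or without the block. HSP90AB1, the constitutive HSP90, had 258030, 212520 and 218620 normalized counts in NT and 279950, 242150 and 274830 in OXA. NT library 1 lay within the OXA range, and the log2 fold change was 0.21 (SE 0.11, edgeR adjusted p = 0.331). HSP90AA1, the inducible HSP90, had 234050, 182740 and 174620 normalized counts in NT and 227390, 196700 and 213690 in OXA. Its log2 fold change was 0.11 (SE 0.13, edgeR adjusted p = 0.689), and it was -0.0050 without NT library 3. With the block and the trends of GC content and length taken out, HSP90AB1 and HSP90AA1 passed as higher, at log2 fold changes of 0.22 (edgeR adjusted p = 0.00178) and 0.19 (adjusted p = 0.00560). HSPA8 had 160290, 123860 and 129510 normalized counts in NT and 137130, 118790 and 127180 in OXA, a log2 fold change of -0.11 (SE 0.12, edgeR adjusted p = 0.657), and with those trends taken out it did not pass (adjusted p = 0.0974). In all 3 genes NT library 1 was the highest NT library. For HSP90AA1 and HSPA8 it was the highest of all 6.

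Of the remaining HSPA genes, HSPA2, best known from the testis, had the most negative log2 fold change of the 62 rows. Its normalized counts were 101, 207 and 167 in NT and 85.5, 138 and 114 in OXA, which overlapped, with a log2 fold change of -0.49 (SE 0.30, edgeR adjusted p = 0.392, with the block 0.0612). In NT library 1 its log2 difference from the other NT libraries was -0.87. With the block and either GC content and length trends removed or replicate 1 left out, its lowest edgeR adjusted p was 0.00247, as lower. HSPA12A, a distant relative of HSP70, had a log2 fold change of -0.040 (SE 0.086, edgeR adjusted p = 0.834). HSPA14, a ribosome-associated HSP70, had log2 fold changes of -0.082 (edgeR adjusted p = 0.801) and -0.12 (adjusted p = 0.515) under its 2 identifiers. GENCODE names the second of these MSANTD7, on the same strand of chromosome 10, and 318 bases of the canonical transcript of HSPA14 (18.0%) lie in its exons, so their counts are uncertain.

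For the ER, a chosen group of 8 genes of the list was read, which may leave out other ER genes of the list. None of the 8 passed the edgeR test without the block. An unadjusted p-value under 0.05 was seen for 1 of them, and for 21.7% of all genes. HSPA5 had 44634, 37200 and 38113 normalized counts in NT and 49990, 44750 and 47741 in OXA. The groups did not overlap, although NT library 1 and OXA library 2 differed by little. The log2 fold change was 0.25 (SE 0.10, edgeR adjusted p = 0.211), and it passed with the block (adjusted p = 0.0240) and without NT library 1 (adjusted p = 0.0497). HSP90B1 (GRP94), which shares the ER stress response element with HSPA5, had 58942, 48757 and 47336 normalized counts in NT and 53682, 48746 and 50586 in OXA, a log2 fold change of -0.019 (SE 0.11, edgeR adjusted p = 0.943). DNAJB9 (ERdj4), a target of the unfolded protein response, had 491, 407 and 476 normalized counts in NT and 391, 340 and 414 in OXA. Its log2 fold change was -0.26 (SE 0.14, edgeR adjusted p = 0.328), and the groups overlapped narrowly. HSPA13 had a log2 fold change of -0.22 (SE 0.15, edgeR adjusted p = 0.458). DNAJB14, a J protein of the ER membrane, had -0.21 (SE 0.12, edgeR adjusted p = 0.375). The block was also fitted with GC content and length trends removed, or without replicate 1. The lowest adjusted p of these edgeR fits was 0.0481 for DNAJB9, 0.0454 for HSPA13 and 0.0114 for DNAJB14, all as lower. The median over the chosen ER group of 8 genes was -0.051, and all 8 changed by less than 0.3 on the log2 scale.

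The mitochondrial chaperones gave small differences as well. HSPD1 (HSP60) had 86948, 65742 and 66929 normalized counts in NT and 85270, 71677 and 79548 in OXA (log2 fold change 0.11, SE 0.13, edgeR adjusted p = 0.699). Its partner HSPE1 (HSP10), which is transcribed away from HSPD1 on chromosome 2, had 12467, 10138 and 9297 in NT and 13109, 11591 and 12034 in OXA (log2 fold change 0.20, SE 0.12, edgeR adjusted p = 0.393). In the fit with the block and without GC content and length trends, HSPD1 (0.16, adjusted p = 0.00550), HSPE1 (0.14, adjusted p = 0.0278) and HSPA9 (0.14, adjusted p = 0.010) passed as higher. Of the canonical HSPE1 transcript, 34.5% is shared with the read-through gene HSPE1-MOB4. Both genes were highest in NT library 1 among the NT libraries and in OXA library 1 among the OXA libraries. HSPA9 (mortalin), the mitochondrial HSP70, had a log2 fold change of 0.052 (SE 0.13, edgeR adjusted p = 0.856). Of a chosen group of 9 mitochondrial genes of the list, DNAJA3 and DNAJC30 passed with the block, and the median was 0.11. DNAJA3 (TID1) had 2764, 3866 and 3645 normalized counts in NT and 3939, 4524 and 4094 in OXA. The groups did not overlap, and the log2 fold change of 0.29 (SE 0.14, edgeR adjusted p = 0.269) passed with the block (adjusted p = 0.0425). In NT library 1 the log2 difference of DNAJA3 from the other NT libraries was -0.44. Without that library its log2 fold change was 0.16 (edgeR adjusted p = 0.340). DNAJC30, a J protein of the inner membrane linked to the respiratory chain, had 180, 179 and 166 normalized counts in NT and 246, 287 and 266 in OXA. Its groups were well apart, with a log2 fold change of 0.60 (SE 0.14), an edgeR adjusted p = 0.0538 without the block and 0.0197 with it, and it passed with DESeq2 (0.0285) and without NT library 1 (0.0433).

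The J proteins, 43 rows of which 39 were tested, had no call by edgeR without the block. At an unadjusted p-value under 0.05, 5 were higher and 1 lower, where 1463 and 1517 of all 13727 genes tested were. By family the median log2 fold change was 0.18 for DNAJA, 0.21 for DNAJB and 0.028 for DNAJC. In the cytosol, DNAJB1 (HSP40), the main J partner of inducible HSP70, had 8126, 9154 and 8883 normalized counts in NT and 10704, 10549 and 11103 in OXA. All OXA libraries lay above all NT libraries. Its log2 fold change was 0.31 (SE 0.084, edgeR adjusted p = 0.0817, with the block 0.0165, and 0.0317 to 0.262 over the other settings without a block, the test against a 1.5-fold change aside). DNAJB4, a close relative of DNAJB1, had 1284, 1014 and 1091 normalized counts in NT and 1664, 1393 and 1638 in OXA. These groups did not overlap either, and the log2 fold change was 0.47 (SE 0.13, edgeR adjusted p = 0.0786, with the block 0.00982, and 0.0174 to 0.27 over the other settings without a block, the test against a 1.5-fold change aside). DNAJB6, which keeps polyglutamine proteins from aggregating, had 4235, 3502 and 3111 in NT and 4904, 4446 and 4155 in OXA, a log2 fold change of 0.32 (SE 0.13, edgeR adjusted p = 0.210, with the block 0.0167, without NT library 1 0.0329). NT library 1 of DNAJB6 lay above OXA library 3. DNAJA4 had 1885, 1910 and 1718 in NT and 2212, 2216 and 1950 in OXA, a log2 fold change of 0.21 (SE 0.097, edgeR adjusted p = 0.262, with the block 0.0420).

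In the DNAJC family, DNAJC24, which takes part in making the diphthamide residue of elongation factor 2, had 927, 730 and 740 normalized counts in NT and 1071, 938 and 1017 in OXA. The groups did not overlap, and the log2 fold change of 0.34 (SE 0.13, edgeR adjusted p = 0.182) passed with the block (adjusted p = 0.0315) and without NT library 1 (adjusted p = 0.0309). DNAJC16 passed with the block as well, at a log2 fold change of 0.20 (SE 0.093, edgeR adjusted p = 0.258, with the block 0.0496).

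DNAJC9, a chaperone of histones H3 and H4 that recruits HSP70 to them, was the 1 row that passed in the negative direction in the fit with the block. Its normalized counts were 3475, 2714 and 3053 in NT and 2250, 2012 and 2392 in OXA, so that every OXA library lay below every NT library. The log2 fold change was -0.47 (SE 0.12, edgeR adjusted p = 0.0651, with the block 0.00964). Over the other settings without a block, the test against a 1.5-fold change aside, its adjusted p ranged from 0.0146 to 0.231, and DNAJC9 passed with DESeq2, with upper quartile factors (0.0444) and with a stricter filter on low counts (0.0479). Exons of FAM149B1, on the opposite strand, cover 1653 of the 2295 bases of its canonical transcript (72.0%), and the setting used for strand in the counting is not given in the sources used here. For FAM149B1 itself the log2 fold change was -0.30 (edgeR adjusted p = 0.185, with the block 0.0466), so reads of either gene may have entered both counts.

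The 10 rows that were not tested were DNAJB7, DNAJB8, DNAJB13, DNAJC5B, HSPA6, HSPB2, HSPB3, HSPB6, HSPB7 and HSPB9. DNAJB8 and HSPB3 had no count in any library, and DNAJB13, HSPB2 and HSPB7 also stayed at or under the floor of 3 counts in all 6. HSPB6 had 4 to 10 raw counts and DNAJC5B 5 to 12. The 30 tested rows not named above had log2 fold changes between -0.21 and 0.32.

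The promoter elements were set beside the changes as a description. The 5 tested genes with a 3-unit element, HSP90AA1, HSP90AB1, HSPA8, HSPD1 and DNAJB6, had log2 fold changes from -0.11 to 0.32 with a median of 0.11, and DNAJB6 was the 1 that passed with the block. The 16 tested symbols with a 2-unit element had a median of 0.30. Of these, 2 rose without the block (HSPA4L and HSPB8) and 7 passed as higher with it, where 2.78% and 12.1% of all genes did. The 16 are not all separate measurements, since reads of HSPA1A and HSPA1B can be assigned to either. HSPA1L, also among them, had only 13 to 26 raw counts per library. By position its match is the same site as that of HSPA1A, read from the opposite strand, so they are not separate elements. The 39 tested symbols with a promoter window but no such element had a median of 0.057, with none called without the block, and 5 higher and 1 lower with it. The search was set up after these changes were known.

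The partners of the chaperones were read from lists of 92 genes, of which 91 were tested. Without the block 2 rose and none fell, where 2.78% of all genes were higher and 2.29% lower. With it 17 were higher and 4 lower, where the shares of all genes were 12.1% and 10.9%, and the counts for the single lists below stand against the same shares. GRPEL1, the exchange factor of mitochondrial HSP70, rose from 4132, 3872 and 3760 normalized counts in NT to 5402, 4947 and 5099 in OXA, with no overlap (log2 fold change 0.39, SE 0.083, edgeR adjusted p = 0.0418, with the block 0.00661). PFDN2, a subunit of prefoldin, which hands actin and tubulin to the chaperonin TRiC, rose from 1889, 1905 and 1837 to 2616, 2472 and 2338 (log2 fold change 0.40, SE 0.086, edgeR adjusted p = 0.0428, with the block 0.00860). Both calls were lost when any library other than NT library 1 was left out, with adjusted p between 0.0978 and 0.199. Without adjustment, 10 partner genes were higher and 4 lower at a p-value under 0.05, where 1463 and 1517 of all 13727 genes tested were. DESeq2 called 2 partner genes higher and 2 lower, where 4.61% and 4.63% of all genes were.

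Among the 20 co-chaperones of HSP90, 5 passed as higher and 1 as lower with the block. The lower one was FKBP5, an immunophilin that binds steroid receptor complexes, with 7626, 6380 and 5924 normalized counts in NT and 5406, 4483 and 4640 in OXA (log2 fold change -0.46, SE 0.12, edgeR adjusted p = 0.0796, with the block 0.00609). For CDC37, which brings kinases to HSP90, the log2 fold change was 0.39 (edgeR adjusted p = 0.228, with the block 0.0283), and for AHSA1, an activator of the HSP90 ATPase, it was 0.26 (adjusted p = 0.172, with the block 0.0158). The change of CDC37, which has 60.0% GC, ranged from 0.26 to 0.53 over the fits that left out 1 library. Among the 19 exchange factors and co-chaperones of HSP70, 3 passed as higher with the block, namely GRPEL1, SIL1 and BAG3. For BAG3, the partner of HSPB8, the log2 fold change was 0.23 (edgeR adjusted p = 0.211, with the block 0.0492). For SIL1, the exchange factor of HSPA5, the log2 fold change was 0.44 (edgeR adjusted p = 0.185, with the block 0.0497). Of the 14 subunits of TRiC and prefoldin, 5 passed as higher with the block, and the log2 fold change of PFDN6 was 0.33 (edgeR adjusted p = 0.172, with the block 0.0164). Of the 12 mitochondrial partners 3 did, including TIMM44, the anchor of mitochondrial HSP70 at the import channel, at 0.34 (edgeR adjusted p = 0.259, with the block 0.0433) and the disaggregase CLPB at 0.33 (edgeR adjusted p = 0.0951, with the block 0.0231). TIMM44, with 58.8% GC, ranged from 0.20 to 0.46 over the fits that left out 1 library.

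Of the 22 ER folding partners, 1 was higher and 3 were lower with the block, and their median log2 fold change was -0.040. XBP1, a transcription factor of the unfolded protein response, had 2628, 2230 and 2567 normalized counts in NT and 1888, 1701 and 2049 in OXA, with no overlap (log2 fold change -0.40, SE 0.11, edgeR adjusted p = 0.0839, with the block 0.00946). For TXNDC5, a protein disulfide isomerase, the log2 fold change was -0.34 (edgeR adjusted p = 0.175, with the block 0.00729). The lectin chaperone CALR was the 1 on the higher side, at 0.26 (edgeR adjusted p = 0.120, with the block 0.0153).

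None of the 4 tested genes of the heat shock factor list passed in either fit, and none had an unadjusted p-value under 0.05 without the block. HSF1, described here after its values were seen, had 978, 2126 and 2084 normalized counts in NT and 2191, 3017 and 2409 in OXA. All OXA libraries lay above all NT libraries, by a narrow margin except for NT library 1, and the log2 fold change was 0.55 (SE 0.28, edgeR adjusted p = 0.308, with the block 0.0525). The canonical HSF1 transcript has 63.9% GC. Over the fits that left out 1 library, the log2 fold change of HSF1 ranged from 0.27 to 0.70. HSF2 had a log2 fold change of -0.015 (SE 0.12, edgeR adjusted p = 0.961).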

How the data were processed

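RNA-seq libraries of HCT116 cells were grouped as 3 NT and 3 OXA by their labels, which also number them. Per the labels and the study's methods, polyadenylated RNA was prepared with a stranded kit, read in pairs of 100 bases, trimmed (Trimmomatic 0.32) and mapped to GRCh38 (STAR 2.7.5b). RSEM 1.3.3 and DESeq2 2.13 are also named. The annotation and the strand setting of the counting are not given in the sources used here. The authors deposited a raw count and a normalized signal per gene and library. The raw counts were tested as deposited, and the authors' normalized signal served only as gene-specific factors in an alternative.

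Genes were filtered with filterByExpr (minimum count 10, minimum total 15), scaled by TMM and compared by the quasi-likelihood test of edgeR 4.0.16 in R 4.3.3. DESeq2 1.42.0 and limma 3.58.1 were run as alternatives. P-values were adjusted by Benjamini-Hochberg over 13727 genes, with a threshold of 0.05. Adjusted p-values are from edgeR unless another tool is named. The SE was derived from the estimate and its F statistic. The steps were tested on simulated data. Limits for passing were set only for independent libraries fitted without the block, and no GC content trend was simulated. Counts at or under 3 were read as the detection floor. Positions, lengths and GC content came from GENCODE 44, with values for 99.6% of the genes tested. Promoter windows came from the RefSeq table of GRCh38.p14. PCR duplicates were not marked, and intervals of counting alone would understate the error.

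Same-numbered libraries deviated together from their group means over the tested genes, with correlations of 0.48, 0.47 and 0.26, all over the limit of 0.1, while other pairs lay between -0.41 and 0.078. The pairing comes from the numbers in the labels.

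Genes and lists were chosen with earlier results of these data known. Named are genes that passed either fit, HSPA, HSPB, HSP90, HSP110 and chaperonin genes with a mean of at least 50 normalized counts, the 5 largest rises and 5 largest falls, and up to 12 partner genes that passed either fit. BAG3 was added to these as the partner of HSPB8, after its values were seen. Alternatives were other scaling factors, filters, tools and thresholds, the block, the removal of GC content and length trends, HSPA1A and HSPA1B summed, and each library left out. Fits with the block without replicate 1 and with a 1.5-fold minimum were added after the data had been seen.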

Additional observations from a re-analysis of the deposited data

How the results depend on the processing

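Without the block, 2 of the 62 tested genes rose and 0 fell, and 2 partner genes rose and 0 fell. The deposited gene-specific factors gave 1 higher and 0 partner genes higher. DESeq2 gave 5 higher and 1 lower, and 2 partner genes lower. Upper quartile factors and a stricter filter on low counts each gave 1 lower, DNAJC9, and over all genes they moved the calls from 381 higher and 315 lower to 348 and 493, and to 363 and 479. A test against a 1.5-fold change left 0 genes and 0 partner genes higher. The 1.5-fold minimum on top of the threshold, and no filter on low counts, each left 0 partner genes higher. The replicate block gave 13 higher and 1 lower, and 17 and 4 partner genes. With GC content and length trends also removed it gave 25 higher and 7 lower, and 34 and 12 partner genes, where 3200 and 3064 of all genes passed. Without replicate 1 the block, which then rests on 4 libraries, gave 26 and 5, and 34 and 7 partner genes, where 2939 and 2800 of all genes passed. With the block and a 1.5-fold minimum 3 were higher, and 0 partner genes. Leaving out 1 library in turn gave 0 to 8 higher, 0 lower, 0 to 2 partner genes higher and 0 lower. The 8 came without NT library 1, where HSPA4L, HSPB8, DNAJC30, DNAJB4, DNAJC24, DNAJB6, HSPH1 and HSPA5 passed, and 0 without NT library 3 or OXA library 1. The block changed no call of a named gene other than those given with it. Of the comparisons of named genes over the settings, 513 kept direction and side of the threshold, 69 passed newly, 10 lost the call and 15 changed sign, the latter among genes near 0. Over the fits that left out 1 library, HSP90AA1 ranged from -0.0050 (without NT library 3) to 0.25, HSP90B1 from -0.11 to 0.087, HSPA14 from -0.23 to 0.028, HSPA4 from -0.043 to 0.19, HSPA8 from -0.22 to 0.012 and HSPA9 from -0.057 to 0.18. HSP90B1 was 0.050 with the trends removed, 0.087 without NT library 1, 0.013 without OXA library 2 and 0.048 with the block without replicate 1. HSPA14 under its first identifier was 0.026, 0.028 and 0.012 in the latter 3 settings, and HSPA8 0.012 without NT library 1. Without NT library 2, NT library 3 and OXA library 1, HSPA4 was -0.043, -0.036 and -0.016 and HSPA9 -0.030, -0.057 and -0.015. The cause of these shifts was not tested. With 3 libraries per group, a p-value that misses the threshold does not show that levels were equal.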
